A study of Saccharomyces cerevisiae with 13 samples.

Results

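Spermine was set directly against spermidine, each added to the same budding yeast (Saccharomyces cerevisiae) mutant, over 8 of the 13 arrays of the series. These were the 3 arrays titled as spermine (SP) and the 5 titled as spermidine (SPD), and the members were all genes that a probe set of the array names alone. The treated cells carry the genotype delta-spe3 delta-fms1, so they lack spermidine synthase (SPE3) and the oxidase that turns spermine back into spermidine (FMS1). The other 5 arrays are controls that were given neither compound, for which the labels give no genotype, while the title of the series speaks of a polyamine-deficient mutant. The labels give no doses or treatment times and do not say whether replicates were separate cultures. The p-values therefore rest on how these samples spread, which may be technical variation. This is 1 pair of compounds, at doses that could not be matched from the labels.

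Spermidine and spermine are small molecules with several amino groups that are positively charged in the cell and bind nucleic acids. Spermidine is made from putrescine by adding an aminopropyl group taken from decarboxylated S-adenosylmethionine, a derivative of methionine, and spermine carries a further aminopropyl group. Spermidine has a use that spermine does not share directly: part of it is transferred to the translation factor eIF5A to form hypusine, which yeast needs in order to grow. Cells without SPE3 cannot make spermidine, and without FMS1 they cannot recover it from added spermine.

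Transcripts were measured on one-colour Affymetrix yeast arrays as a signal per probe set, a linear fluorescence value in which a larger number means more transcript. Of 5656 genes named alone by a probe set, 554 were left out as too dim and 5102 were tested. Signals below are the deposited ones, and each difference is a log2 of spermine over spermidine after quantile normalization with its standard error (±), from limma fitted over all 13 arrays. A gene was called at a Benjamini-Hochberg adjusted p of 0.05 or less over all 5102 genes. Signals of the deleted genes were checked first. SPE3 lay between 0.570 and 13.8 and FMS1 between 1.10 and 8.10 on the 13 arrays, and both were at background on all 13, controls included, where background is the level that 95% of the 19 non-yeast control probe sets on an array stay under. Markers of mating type alpha were above background on all arrays for 5 of 5 genes and those of type a for 2 of 7. The summed signal of the alpha markers was 10810 to 13020 with spermine, 9174 to 18610 with spermidine and 10520 to 12990 in controls. The summed signal of 12 meiosis and sporulation genes, 3 of them above background on all arrays, was 198 to 301 with spermine, 346 to 463 with spermidine and 219.8 to 294.4 in controls, and its part in the results was not tested.

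A pair of arrays stood apart from the others of their groups. On spermine 1, general stress and heat shock genes were higher than on spermine 2 and 3, and its deviations from the group mean ran with those of controls 2 and 3 (correlations over genes of 0.578 and 0.486). On spermidine 4, sulfate uptake genes were higher and genes of daughter cells lower than on the other 4 spermidine arrays. Replicates correlated between 0.954 and 0.977 for spermine and between 0.939 and 0.984 for spermidine, against 0.867 to 0.935 between the groups. Median signals ran from 125 (spermidine 2) to 162 (spermidine 4) over the arrays. The ratio of the 3′ to the 5′ probe set of the actin gene ACT1, a sign of RNA integrity, ran from 1.51 (spermidine 4) to 2.04 (spermidine 2). On the spermine arrays these measures were 138 to 145 and 1.61 to 1.82.

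With spermine, 480 genes were higher than with spermidine and 567 were lower, and 203 and 235 of them by at least 2-fold. Of the 5102 genes, 20.5% were called either way, 9.41% higher and 11.1% lower, which is the background for each count of a gene group below (3.98% and 4.61% by at least 2-fold). The 3 spermine and 5 spermidine arrays did not overlap for 1410 genes (27.6%), and 427 of the higher and 525 of the lower calls were among these. The largest differences were on the lower side: 23 genes were lower by a log2 of at least 3 and 3 were higher by as much. For the 4055 genes not called, missing the threshold does not show that levels were equal. The 95% interval lay within 2-fold either way for 3508 of the 5102 genes (68.8%) and within 1.5-fold for 1230 (24.1%). Without spermine 1 and spermidine 4 together, 328 genes were called higher and 407 lower. Because RNA of whole cultures was measured, fewer cells of a kind and less RNA per cell cannot be told apart.

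**Figure D1:**
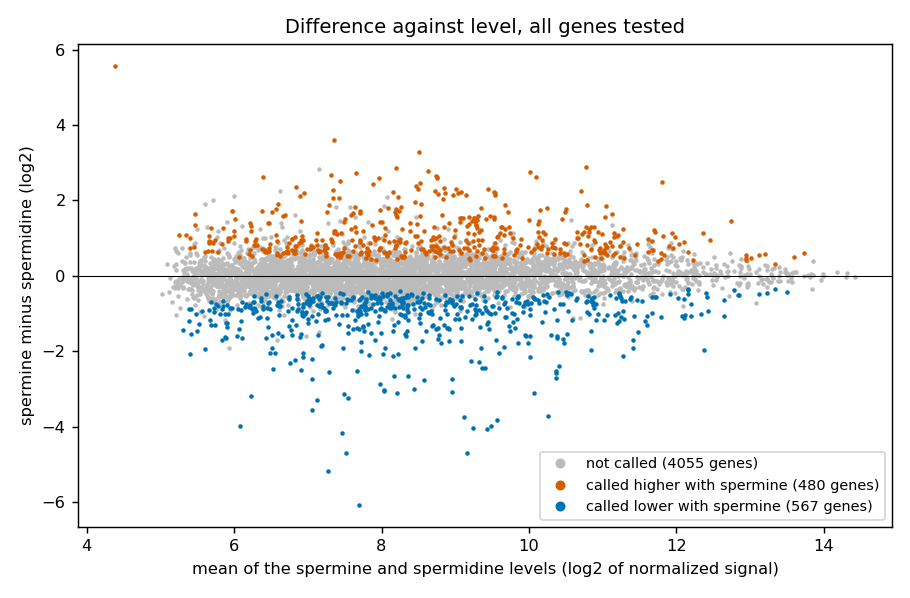
Difference between spermine and spermidine (log2, vertical axis) against the mean level of both groups (log2 of normalized signal, horizontal axis), 1 point for each of the 5102 genes tested. The 480 genes called higher with spermine reach 5.57 (YNL194C, with spermidine signals at background) and the 567 called lower reach -6.08.

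In the same fit 1663 genes (32.6%) differed between spermidine and control, and 1 gene (0.0196%) between spermine and control. These contrasts share arrays with the direct one. Their values are given below for part of the genes and gene groups only, side by side and without further comparison.

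Biotin genes held the largest difference. Biotin is a vitamin that yeast can make from late precursors. Of 6 genes for its synthesis, its uptake or its attachment to proteins (BPL1), 5 were lower with spermine. The median of the 6 was log2 -3.85, where the median of all genes was 0.01. BIO5, which takes up a biotin precursor, had signals of 20.2, 32.2 and 26.7 on the spermine arrays and of 1892, 1969, 1855, 1218 and 1915 on the spermidine arrays. Control signals of BIO5 were 35.0 to 81.7, so spermidine arrays stood far above both other groups. Its level with spermine was 67.5-fold lower (log2 -6.08 ± 0.24, adjusted p = 9.22e-10), a size that is less certain because 2 of the 3 spermine arrays were above background. The aminotransferase gene BIO3 gave 171, 119.7 and 69.9 with spermine against 2898, 3518, 3438, 2343 and 2690.5 with spermidine (26.1-fold lower, log2 -4.71 ± 0.35, adjusted p = 4.73e-07). For the dethiobiotin synthetase gene BIO4, signals were 180.1, 203 and 165 against 2782, 3240.1, 2984, 2574 and 2707 (log2 -3.97 ± 0.17, adjusted p = 1.79e-09). The spread within a group was small beside the distance between groups for both enzymes. BIO3, BIO4 and BIO5 lie next to each other in the reference annotation, and the genes flanking the cluster, HOL1 and MNT4, were not called (log2 0.24 and -0.08). Biotin synthase, encoded by BIO2 elsewhere, gave 594, 279 and 243 against 3979, 4878, 4665, 3516 and 5119.6, with control signals of 325 to 1109 (log2 -3.72 ± 0.35, adjusted p = 4.91e-06). Against control, the log2 of BIO5, BIO3, BIO4 and BIO2 was 4.90, 3.84, 3.74 and 2.57 with spermidine, and -1.18, -0.86, -0.23 and -1.15 with spermine, where none was called.

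Sulfate assimilation was lower with spermine than with spermidine throughout. This pathway imports sulfate and reduces it to sulfide, from which homocysteine, methionine and S-adenosylmethionine are made, and all 10 measured genes of sulfate uptake and reduction were called lower, at log2 values from -4.06 to -2.29 and a median of -2.99. MET14, adenylylsulfate kinase, had signals of 139, 231 and 154 with spermine and 2683, 2145, 1829, 6667 and 2205 with spermidine (16.7-fold lower, log2 -4.06 ± 0.38, adjusted p = 4.91e-06). ATP sulfurylase, the first enzyme, is encoded by MET3, with signals of 143, 147 and 168 against 2179, 1302, 1036, 5504 and 1880.4 (log2 -3.75 ± 0.41, adjusted p = 2.38e-05). In both genes the highest signal by far was that of spermidine 4, and the other 4 spermidine arrays were also above the 3 spermine arrays. The sulfite reductase subunit gene MET10 gave 124, 90.8 and 94.99 against 743, 529.8, 584, 2834 and 714 (log2 -3.12 ± 0.41, adjusted p = 9.16e-05). SUL1, a sulfate permease, ranged most widely, with 13.4, 20.4 and 20.7 against 230.04, 63.2, 69.2, 4208 and 241 (log2 -3.99 ± 0.97, adjusted p = 0.00967), and 2 of the 3 spermine arrays were above background for it. SUL1 passed the filter on dim genes only with spermidine 4 present, and without that array and that filter it was at log2 -2.93 (adjusted p = 0.000368). Per array, the median of the 10 genes lay between -2.99 and -2.89 for the spermine arrays and at 1.596 for spermidine 4, relative to the spermidine mean, and between -0.64 and -0.22 for the remaining spermidine arrays. Without spermidine 4, the 9 genes still tested, SUL1 being left out as dim, were all called lower, at a median of -2.36. Against control, the median of the 10 genes was log2 3.29 with spermidine and 0.31 with spermine.

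Further along the pathway, 5 of 9 tested genes of homocysteine, cysteine and methionine synthesis were lower, with a median of log2 -0.93. MET2, which acetylates homoserine to accept the sulfide, had 36.7, 26.0 and 19.6 with spermine and 665, 766, 615, 3479.6 and 561 with spermidine, 36.1-fold lower (log2 -5.17 ± 0.57, adjusted p = 2.38e-05). STR3, cystathionine beta-lyase, gave 170.1, 139 and 141 against 1407, 2749.7, 2677, 5136 and 1615, and control signals of 49.2 to 103 (log2 -4.05 ± 0.36, adjusted p = 3.08e-06). Both genes had their highest signal on spermidine 4, as sulfate genes did. MET13, methylenetetrahydrofolate reductase, was 2.01-fold lower (log2 -1.01 ± 0.23, adjusted p = 0.00577). Methionine synthase, MET6, was 2.15-fold lower (log2 -1.10 ± 0.27, adjusted p = 0.00974), a call that ended without spermine 2 (adjusted p up to 0.0669). Among 5 tested regulators of the pathway 2 were lower. The cofactor gene MET28 had 105, 46.5 and 60.8 against 252, 288, 337, 1233 and 240.3 (log2 -2.54 ± 0.51, adjusted p = 0.00248). MET30, whose product marks the activator Met4 with ubiquitin, was 2.03-fold lower (adjusted p = 0.0324), and its call ended without spermine 1, 2 or 3 (adjusted p up to 0.149).

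Genes that use or import S-adenosylmethionine (SAM) and S-methylmethionine were lower in 6 of 9 cases, with a median of log2 -0.61. MHT1, which passes a methyl group from S-methylmethionine to homocysteine, had 18.4, 39.4 and 22.3 with spermine and 177, 170.4, 192, 536 and 184 with spermidine (9.06-fold lower, log2 -3.18 ± 0.34, adjusted p = 1.97e-05). The S-methylmethionine permease gene MMP1 gave 107, 129 and 161 against 635, 1048, 930.2, 1394 and 455 (log2 -2.67 ± 0.34, adjusted p = 8.10e-05). MUP1, the high-affinity methionine permease, was 2.29-fold lower (log2 -1.20 ± 0.17, adjusted p = 0.000183). No array of one group reached the other group in these 3 genes, and MHT1 was above background on 2 of the 3 spermine arrays. Salvage of methylthioadenosine, the by-product of polyamine synthesis, had 0 of 5 genes called by limma, and its bright members MEU1 and MDE1 had intervals of -0.12 to 0.93 and -0.93 to 0.27 (log2).

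**Figure D2:**
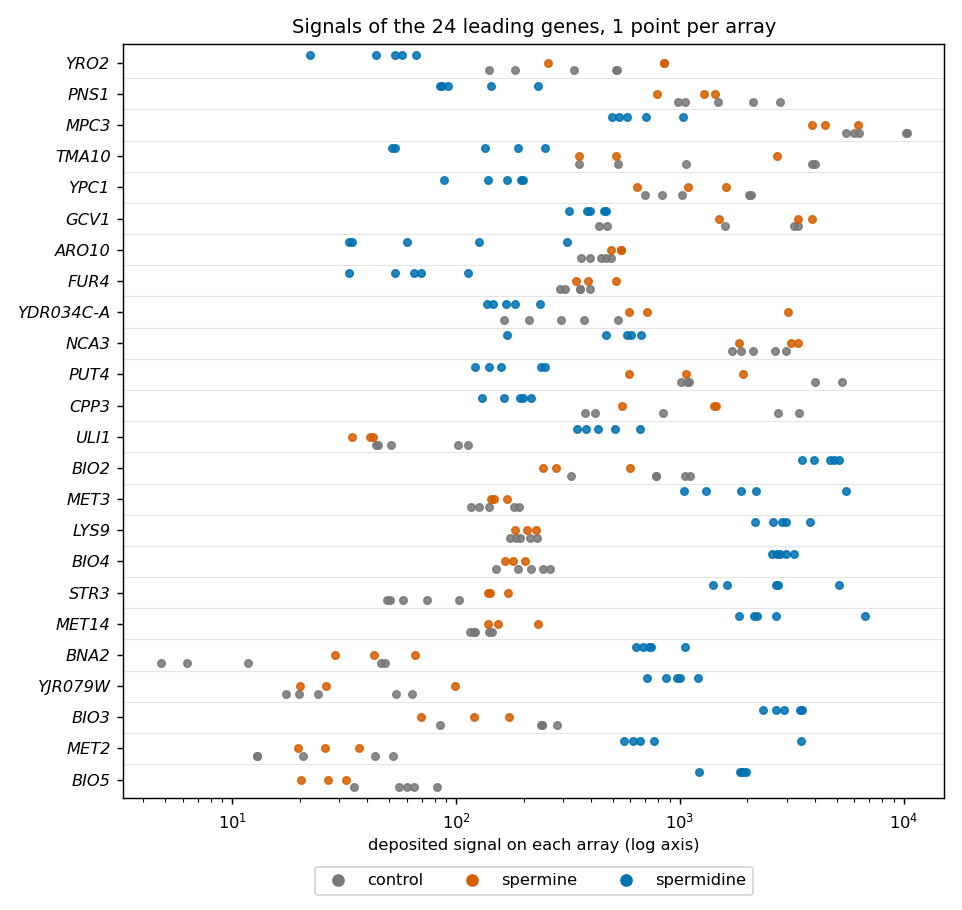
Deposited signal (log axis) of the 24 leading genes on each array, with spermine, spermidine and control arrays drawn apart. In the 12 genes lower with spermine, from BIO5 to ULI1, the spermine points lie below all spermidine points, and in the 12 higher genes, from YRO2 to CPP3, above them. Normalized values without overlap between these groups were a condition for choosing the 24 genes, so this separation is not a result.

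The genes of the polyamines themselves differed little by comparison. None of the 5 tested genes of polyamine synthesis, oxidation and antizyme was called by limma in the direct contrast, and none of 4 for eIF5A and its hypusine modification. SPE1, ornithine decarboxylase, which makes putrescine, had 1167, 835 and 960.2 with spermine and 767, 1070.2, 1009.8, 600.1 and 983 with spermidine, with a 95% interval of the log2 difference from -0.27 to 0.62. OAZ1, the antizyme that targets Spe1 for destruction, gave 779, 808 and 833 against 1082, 714, 917, 1547 and 1004 (interval -0.76 to 0.06). SPE2, which decarboxylates SAM to supply aminopropyl groups, had the largest difference of this group, 761, 973 and 894 against 659, 813, 699.7, 491 and 433 (log2 0.55 ± 0.21, adjusted p = 0.0748, interval 0.11 to 0.99). SPE2 was called without spermidine 2 (adjusted p = 0.0273). Against control, SPE2 was at log2 -0.82 with spermidine (adjusted p = 0.00297) and -0.27 with spermine (adjusted p = 0.799). For SPE4, spermine synthase, the interval was -0.61 to 0.34, and for PAA1, a polyamine acetyltransferase, -0.47 to 0.74. The eIF5A gene HYP2 had signals of 10130 to 14511 with spermine and 9786 to 14880 with spermidine (interval -0.07 to 0.28), the narrowest of these. For the second eIF5A gene ANB1 the interval was -0.85 to 0.65, and for DYS1 and LIA1, the deoxyhypusine synthase and hydroxylase, -0.20 to 0.78 and -0.79 to 0.22. The HYP2, SPE1, OAZ1, SPE2, SPE4, PAA1, DYS1, LIA1 and ANB1 intervals all stay within 2-fold.

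Transporters of polyamines moved in both directions. Of 11 tested, TPO2 was higher and SAM3, TPO4 and TPO5 were lower with spermine, and the group median was log2 0.04. SAM3, a permease for SAM that also takes up polyamines, gave 1512, 1029.6 and 1641 with spermine and 4669, 5177, 4768, 6095 and 4840 with spermidine (3.75-fold lower, log2 -1.91 ± 0.29, adjusted p = 0.000334). TPO5, an exporter in the secretory pathway, gave 309.6, 347 and 251 against 648, 524, 466, 622 and 568 (log2 -0.92 ± 0.16, adjusted p = 0.000958). TPO2, an exporter of the plasma membrane, went the other way, with 3970.3, 4561 and 2621 against 1179, 1949, 1938, 855 and 788 (2.94-fold higher, log2 1.55 ± 0.28, adjusted p = 0.00135). The TPO2 probe set is of a type that may match related sequences, so signal from close relatives cannot be separated there. The SAM3 one is too, while a further SAM3 probe set of the plain type gave log2 -1.93 (adjusted p = 0.000239). TPO4 was 1.93-fold lower (adjusted p = 0.0337), a call that ended without spermine 2 or 3 or without spermidine 2, 3, 4 or 5 (adjusted p up to 0.173). Of the 7 others, intervals were -0.25 to 0.74 for the exporter TPO1, -0.41 to 0.82 and 0.01 to 0.69 for the kinases PTK2 and SKY1 that promote uptake, and -1.15 to 0.61, -0.54 to 0.62, -1.02 to 0.29 and -0.10 to 0.79 for the permeases DUR3, AGP2, GAP1 and UGA4.

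Of 9 genes listed for de novo synthesis of NAD from tryptophan, the repressor genes HST1 and SUM1 included, 4 were lower with spermine. The median of the 9 was log2 -0.78, and against control it was 1.53 with spermidine and 0.68 with spermine. BNA2, tryptophan dioxygenase and the first enzyme, had 65.6, 28.6 and 43.0 with spermine and 724, 681, 635, 1049.8 and 739.7 with spermidine (18.2-fold lower, log2 -4.18 ± 0.63, adjusted p = 0.000307). Its annotated neighbour YJR079W, a frame of unassigned function, gave 99.1, 26.1 and 20.1 against 996, 965, 713, 1207 and 866 (log2 -4.70 ± 0.47, adjusted p = 8.81e-06), and MIR1 and AIM24 on either side of the pair were not called (log2 -0.21 and 0.14). BNA4, kynurenine monooxygenase, and BNA5, kynureninase, were 2.02-fold and 1.80-fold lower (adjusted p = 0.000556 and adjusted p = 0.00196). BNA3 had 390.3, 252 and 276 against 872, 639.6, 823, 2544 and 709, the highest on spermidine 4 (log2 -1.72 ± 0.35, adjusted p = 0.00273). In NAD salvage, the adenylyltransferase genes NMA1 and NMA2 moved apart, NMA1 1.89-fold higher (adjusted p = 0.00188) and NMA2 1.38-fold lower (adjusted p = 0.0399). The NMA2 call ended without control 5, without spermine 1, 2 or 3, or without spermidine 1, 2 or 4 (adjusted p up to 0.173), and further NMA2 probe sets gave log2 -0.32 and -0.34 (adjusted p = 0.451 and adjusted p = 0.207).

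Lysine synthesis had 7 of 9 genes lower, with a median of log2 -1.65. Fungi make lysine from 2-oxoglutarate by way of aminoadipate. LYS20, homocitrate synthase of the first step, had 2551, 2644 and 2738 with spermine and 10918, 11079, 10859, 8136 and 11035 with spermidine (3.94-fold lower, log2 -1.98 ± 0.11, adjusted p = 3.94e-08). LYS4, homoaconitase, gave 510.3, 559 and 435 against 1991, 3089, 2753, 1516 and 2309.7 (log2 -2.16 ± 0.24, adjusted p = 2.74e-05). LYS9, a saccharopine dehydrogenase late in the pathway, gave 207, 184 and 227 against 2152, 2605, 3818, 2859 and 2976 (14.1-fold lower, log2 -3.82 ± 0.18, adjusted p = 3.85e-09). LYS1, which releases lysine from saccharopine, gave 591, 489 and 596 against 2902, 4063, 3395, 2699 and 2964 (log2 -2.52 ± 0.19, adjusted p = 5.31e-07). Spermine signals of LYS9 were close to the control signals of 175 to 229, and those of LYS1 stood above the control signals of 201 to 388. The number of lysine genes called stayed at 7 without spermine 1, without spermidine 4 and without both. The median of the 9 lysine genes against control was log2 2.14 with spermidine and 0.25 with spermine.

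Other amino acid pathways did not share 1 direction. Arginine synthesis had 4 of 7 genes lower (median log2 -0.82). ARG1, argininosuccinate synthetase, gave 1214, 828 and 1334 against 2810.1, 3296, 3309.9, 2746 and 3075 (log2 -1.47 ± 0.17, adjusted p = 4.21e-05), and ARG3, ornithine transcarbamylase, was 2.57-fold lower (adjusted p = 0.00137). Without spermine 1, 2 of the 7 were called. Histidine synthesis had 3 of 7 higher (median log2 0.51), among them HIS3, 1.71-fold higher (adjusted p = 0.00769). HIS7, 1.80-fold higher, was not called without spermine 3 (adjusted p up to 0.0758). Aromatic amino acid synthesis had 2 higher and 2 lower of 12, with ARO4 1.85-fold higher (adjusted p = 0.00279) and TYR1 1.80-fold lower (adjusted p = 0.00279), and branched-chain synthesis had 1 lower of 12. The isozymes SER3 and SER33, which start serine synthesis from 3-phosphoglycerate, moved in opposite directions. SER3 had 727, 363 and 739 with spermine and 153, 229, 324, 149.6 and 75.6 with spermidine (3.53-fold higher, log2 1.82 ± 0.41, adjusted p = 0.00616). SER33 had 628, 390.3 and 559.6 against 1226, 1311, 1238, 2361 and 1272 (2.78-fold lower, log2 -1.47 ± 0.23, adjusted p = 0.000437). Neither gene overlapped between the groups.

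Among 17 amino acid permeases 4 were higher and 2 lower. PUT4, the proline permease, gave 1917, 589 and 1065 with spermine and 240.1, 140.5, 121, 158 and 248 with spermidine (6.11-fold higher, log2 2.61 ± 0.54, adjusted p = 0.00335), and HIP1, the histidine permease, was 1.99-fold higher (adjusted p = 0.000383). SSY1, a sensor of external amino acids, was 3.15-fold lower (log2 -1.66 ± 0.22, adjusted p = 8.56e-05). ARO10, a decarboxylase of amino acid breakdown, gave 544, 543 and 489.7 against 127, 34.3, 33.3, 313 and 60.0 (6.66-fold higher, log2 2.74 ± 0.49, adjusted p = 0.00118), and spermidine 4 had the highest of the spermidine signals.

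The protein folding machinery of the endoplasmic reticulum (ER) was lower with spermine. Secreted and membrane proteins are folded, glycosylated and exported there, and 12 of 14 chaperones and disulfide enzymes were lower (median log2 -1.48), as were 5 of 11 genes of ER protein degradation (median -0.44) and 22 of 32 of translocation, glycosylation and export (median -0.73). EUG1, a protein disulfide isomerase, had 47.0, 46.3 and 43.2 with spermine and 400.4, 339.8, 449, 569 and 439.7 with spermidine (9.79-fold lower, log2 -3.29 ± 0.24, adjusted p = 4.73e-07). SIL1, the nucleotide exchange factor of the ER chaperone Kar2, gave 152, 183 and 184 against 1489, 1355, 1319, 1669.5 and 1444 (8.43-fold lower, log2 -3.07 ± 0.15, adjusted p = 5.32e-09). JEM1, a J-domain partner of Kar2, and LHS1, an Hsp70 relative, were 6.64-fold and 4.81-fold lower (adjusted p = 1.49e-07 and adjusted p = 1.49e-07). Replicates lay close together in these 4 genes: SIL1 was 173 ± 18.3 (SD, n = 3) with spermine and 1455 ± 138 (SD, n = 5) with spermidine. For degradation, DER1 and HRD1, parts of the ubiquitin ligase complex that removes misfolded proteins, were 6.76-fold and 3.96-fold lower (adjusted p = 7.77e-07 and adjusted p = 1.37e-05). The DER1 probe set is of a type that may match related sequences, and a further one of the plain type gave log2 -2.91 (adjusted p = 1.45e-07). USA1 and DFM1 of the same process were 2.62-fold and 3.00-fold lower (adjusted p = 7.61e-05 and adjusted p = 2.35e-05).

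Protein O-mannosyltransferases of the ER followed. PMT3 had 67.6, 55.5 and 63.2 against 714, 384, 505, 854 and 509.9 (9.54-fold lower, log2 -3.25 ± 0.20, adjusted p = 9.93e-08), PMT5 was 3.78-fold lower (adjusted p = 0.000161) and PMT1 2.93-fold lower (adjusted p = 1.91e-06). ALG7, which starts the N-linked sugar chain, was 2.77-fold lower (adjusted p = 5.00e-05). Signalling of the unfolded protein response, which raises chaperone genes under ER stress, had 1 of 5 genes called, and in the other direction. HAC1, its transcription factor, gave 6485, 8814 and 8846 with spermine and 3516, 3118, 2829, 4745 and 3427 with spermidine (2.21-fold higher, log2 1.15 ± 0.19, adjusted p = 0.000656). That probe set may match related sequences, and a further HAC1 probe set of the plain type gave log2 0.78 (adjusted p = 0.00733). HAC1 acts after its RNA is spliced, which a level does not show. ULI1, a gene of unknown function reported in yeast as induced by unfolded proteins, had 41.3, 42.6 and 34.1 against 514, 346, 378, 665 and 428 (11.9-fold lower, log2 -3.57 ± 0.29, adjusted p = 9.86e-07). ER groups against control had medians of log2 1.18 for chaperones and 0.67 for translocation, glycosylation and export with spermidine, and -0.23 and -0.12 with spermine.

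**Figure D3:**
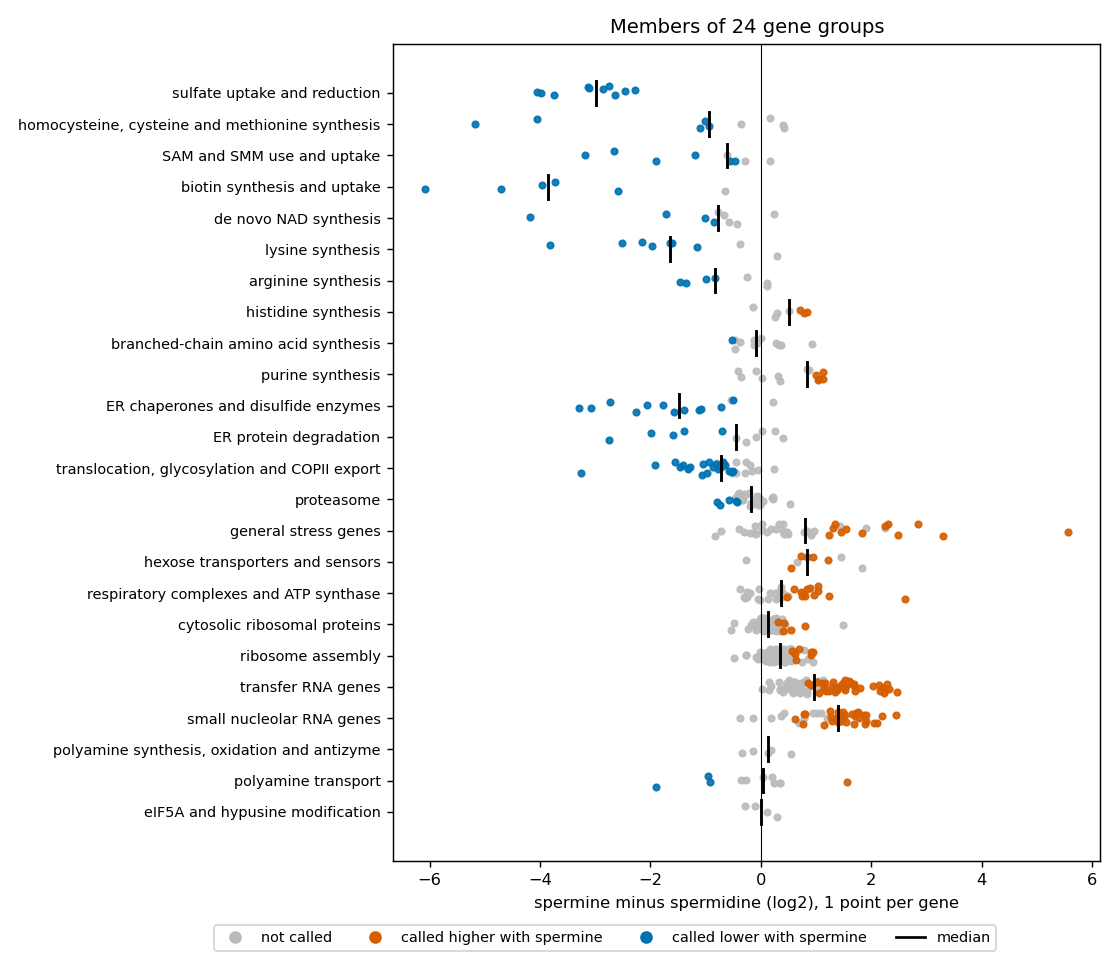
Difference between spermine and spermidine (log2, horizontal axis) of each tested member in 24 gene groups, with the group median as a bar and called genes in colour. Sulfate, biotin, lysine and ER genes lie to the left of 0 and transfer and small nucleolar RNA genes to the right, while eIF5A genes lie around 0.

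Lipid and phosphate genes held some of the larger single differences. INO1, which makes inositol for phospholipids, had 1718, 909.7 and 1049 with spermine and 5058, 5607, 4739.7, 4853 and 5386 with spermidine (4.39-fold lower, log2 -2.13 ± 0.27, adjusted p = 6.32e-05), while 3 of 17 genes of its group were lower and 1 higher. Of 23 ergosterol genes 2 were higher and 2 lower. The isozymes of HMG-CoA reductase, the main control point of sterol synthesis, differed in direction: HMG1 was 1.72-fold higher (adjusted p = 0.00160) and HMG2 1.67-fold lower (adjusted p = 0.00159). ERG5, which desaturates the sterol side chain, was 2.44-fold higher (log2 1.29 ± 0.15, adjusted p = 2.75e-05).

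In the phosphate regulon, 6 of 14 genes were lower and 2 higher. PHO84, the high-affinity phosphate permease, gave 309.6, 2103 and 325 against 3793, 2518, 2178, 3637 and 3704 (5.27-fold lower, log2 -2.40 ± 0.50, adjusted p = 0.00353). Spermine 2 stood near the lowest spermidine array, so the normalized PHO84 values overlapped, and spermine 1 and 3 were near the control signals of 162 to 338. VTC3, of the polyphosphate polymerase, was 2.54-fold lower (log2 -1.34 ± 0.24, adjusted p = 0.00102). PHO3, an acid phosphatase that takes thiamine phosphate, went the other way, with 867, 2326 and 1776 against 423, 371, 484, 126 and 605 (4.43-fold higher, log2 2.15 ± 0.49, adjusted p = 0.00661). Without spermine 1, 2 phosphate genes were called lower and 2 higher.

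Vacuolar and autophagy genes were lower for 6 of 21 and higher for 1. AMS1, the vacuolar mannosidase, had 169, 84.8 and 57.0 with spermine and 962, 484, 471, 1399 and 774 with spermidine (8.18-fold lower, log2 -3.03 ± 0.38, adjusted p = 6.22e-05). ATG13, a regulator that starts autophagy, was 2.99-fold lower (adjusted p = 0.000112). Of 33 proteasome genes 5 were lower and 0 higher, led by PRE1 at log2 -0.79 (adjusted p = 0.00557), and without both spermine 1 and spermidine 4 the count was 0. In the pentose phosphate pathway 3 of 10 genes were lower, with GND1 2.14-fold lower (adjusted p = 0.00163) and TAL1 1.58-fold lower (adjusted p = 0.000807). The median of the 10 was log2 0.03, with 5 above 0 and 5 below, and values reached 2.11 on the higher side, where 0 were called. ZWF1, the first enzyme of that pathway, was 2.24-fold lower and lost its call without spermine 1 or 2 (adjusted p up to 0.103).

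Of the genes higher with spermine, YRO2, a membrane protein related to a heat shock protein, led with 849.5, 848 and 258 with spermine and 66.4, 22.2, 57.3, 44.0 and 53.2 with spermidine (12.2-fold higher, log2 3.61 ± 0.48, adjusted p = 0.000103). PNS1, a membrane protein of the choline transporter-like family, gave 1438, 786 and 1274 against 233, 91.4, 84.2, 143 and 86.7 (log2 3.29 ± 0.37, adjusted p = 2.74e-05). MPC3, a subunit of the mitochondrial pyruvate carrier, gave 6218, 3892 and 4423 against 1033, 706, 532, 499 and 578 (7.39-fold higher, log2 2.89 ± 0.28, adjusted p = 6.67e-06). Control signals were 5492 to 10336 for MPC3 and 978 to 2789 for PNS1, above both treated groups on several arrays. YPC1, a ceramidase, gave 1607, 642 and 1079.6 against 198, 88.1, 195, 168 and 139 (log2 2.79 ± 0.38, adjusted p = 0.000141). NCA3, a cell wall protein of the SUN family, gave 3376, 3143 and 1827 against 667, 578, 467, 168 and 602, the lowest on spermidine 4 (log2 2.61 ± 0.40, adjusted p = 0.000375). FUR4, the uracil permease, gave 389, 517 and 341 against 69.7, 53.3, 113, 33.1 and 64.8 (6.39-fold higher, log2 2.68 ± 0.30, adjusted p = 2.38e-05). YPC1, NCA3 and FUR4, like the other leading genes, were chosen from called genes without overlap between the groups. YDR034C-A, for which the files give no other name, gave 715, 3026 and 594 against 138, 167, 236, 147 and 182 (log2 2.66 ± 0.47, adjusted p = 0.00104), and spermine 2 was far above the other spermine arrays. Further probe sets of YDR034C-A gave log2 1.64 and 2.42, and these probe sets may match related sequences. CPP3 gave 1416, 1454 and 552 against 216, 192, 131, 199 and 163 (log2 2.59 ± 0.64, adjusted p = 0.00986), and its call ended without spermine 2 (adjusted p up to 0.0524).

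General stress genes were higher for 12 of 40 and lower for 0, with a median of log2 0.81. Genes of this type are switched on by the factors Msn2 and Msn4 under many stresses and in slow growth. The list, like the others, was chosen with earlier results of these data known. DDR2 had 9638, 7269.5 and 8636 with spermine and 2258, 722, 516, 3266 and 2438 with spermidine (5.61-fold higher, log2 2.49 ± 0.51, adjusted p = 0.00294), and HSP12, a small membrane-stabilizing heat shock protein, 12927, 11392 and 9594 against 4888, 3238, 2941, 4765 and 4915 (log2 1.46 ± 0.24, adjusted p = 0.000707). YNL194C had 1023, 70.8 and 42.0 with spermine and was at background on all 5 spermidine arrays (1.52 to 3.98), so it was at least 8.01-fold higher (adjusted p = 0.00920). YNL194C passed the filter on dim genes only with spermine 1, control 2 and control 3 all present. Without spermine 1 its bound was 2.99-fold, and with no filter it was not called (adjusted p = 0.0621). Spermine 1 set much of the size of such values: TMA10 gave 2704, 353 and 518 against 51.6, 188, 249, 134 and 53.3 (log2 2.85 ± 0.87, adjusted p = 0.0320), and lost its call without spermine 1 or 3 or without spermidine 1 or 5 (adjusted p up to 0.168). Per array, the median of the 40 genes was 1.24 above the spermidine mean on spermine 1, 0.45 and 0.46 on spermine 2 and 3, and between -0.43 and 0.41 on the spermidine arrays. Without spermine 1, YNL194C was left out as dim, 5 of the 39 genes still tested were called and the median was 0.32. Controls 2 and 3 had medians of 1.87 and 1.89, and the other controls 0.13 to 0.56. Heat shock proteins were called higher for 3 of 24, and their median fell from log2 0.42 to 0.07 without spermine 1. HSP104, a disaggregase, was 2.76-fold higher (log2 1.47 ± 0.48), and without spermine 1 its log2 was 0.85 (adjusted p = 0.232). Its call also ended without control 4, spermine 3 or any of the 5 spermidine arrays.

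Respiratory genes of the nucleus were higher for 12 of 35 and lower for 0 (median log2 0.37), and 12 were called without spermine 1 and 11 without spermidine 4. CYC7, a cytochrome c isoform, had 357, 103 and 254 with spermine and 38.9, 17.9, 22.2, 45.9 and 51.1 with spermidine (6.12-fold higher, log2 2.61 ± 0.45, adjusted p = 0.000807). QCR10, of the cytochrome bc1 complex, and NDE1, an external NADH dehydrogenase, were 2.37-fold and 2.04-fold higher (adjusted p = 0.00281 and adjusted p = 0.00192). The groups did not overlap for CYC7, QCR10 or NDE1, and CYC7 was above background on 4 of the 5 spermidine arrays. LPD1, a subunit of the pyruvate and other dehydrogenases, was 1.55-fold lower (adjusted p = 0.000667). In the tricarboxylic acid cycle 1 of 17 genes was called, LSC2, 2.21-fold lower (adjusted p = 0.000679). PFK2, a phosphofructokinase subunit, gave 5731, 5729 and 5815 against 3522, 3976, 3699, 3221 and 3740.1 (1.55-fold higher, adjusted p = 0.000354). ADH1, the main fermentative alcohol dehydrogenase, was 1.41-fold higher (adjusted p = 0.000220) and ADH4, an isozyme, 3.93-fold lower, with 924, 858 and 1014 against 3272, 4299.5, 3992, 3283 and 3224 (adjusted p = 8.69e-07).

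Hexose transporters were called higher for 5 of 9 (median log2 0.83), a count that rested on single arrays. Without spermine 1 it was 1, and without both spermine 1 and spermidine 4 it was 0. HXT1, a low-affinity transporter, had 7120.3, 3884 and 4758 with spermine and 1904, 4102, 3647, 876 and 2156 with spermidine (log2 1.22 ± 0.39, adjusted p = 0.0379), so the groups overlapped, and the call ended without spermine 1 or 3 or spermidine 1 or 5 (adjusted p up to 0.167). HXT6 and HXT7 share nearly the same sequence and their probe sets cannot tell them apart.

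Some purine and one-carbon genes were higher with spermine. Of 13 purine synthesis genes 5 were higher and 0 lower (median log2 0.84). ADE2 and ADE13, enzymes that build the purine ring, gave 5311, 5326 and 6867 and 5569.5, 4543 and 5741 with spermine, and 2726, 3295, 3032, 1958 and 2527 and 2690.5, 3222, 2912, 1973 and 2091 with spermidine (2.19-fold and 2.08-fold higher, adjusted p = 0.00653 and adjusted p = 0.0106). In glycine cleavage and one-carbon metabolism 4 of 9 were higher and 1 lower (median log2 0.50). GCV1, a subunit of glycine decarboxylase, had 3891, 1495 and 3373 against 383, 456, 467, 396 and 321 (6.79-fold higher, log2 2.76 ± 0.60, adjusted p = 0.00478). Control signals of GCV1 ran from 436 to 3351, wider than either treated group. MTD1, a tetrahydrofolate dehydrogenase, had 2404, 2242 and 3514 against 873, 1092, 924, 548 and 654 (3.39-fold higher, log2 1.76 ± 0.30, adjusted p = 0.000708). GCV2 gave 3201, 608 and 1989 against 284, 379, 378, 370.4 and 334 (adjusted p = 0.0135), and its call ended without spermine 1 or 3 (adjusted p up to 0.0811). Without spermine 1, 3 purine genes and 2 one-carbon genes were called higher, and without spermidine 4 as well, 2 and 2.

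Iron uptake genes were higher for 9 of 28 and lower for 3, 4 and 2 without spermine 1. ENB1, an importer of the siderophore enterobactin, had 516, 849 and 1528 with spermine and 369.7, 349, 308, 339 and 288 with spermidine (2.68-fold higher, log2 1.42 ± 0.32, adjusted p = 0.00550). FET4, a low-affinity iron transporter, had 248, 135 and 186 against 466, 568, 655, 342 and 351 (2.46-fold lower, log2 -1.30 ± 0.26, adjusted p = 0.00281). FTH1, a vacuolar iron transporter, was 1.70-fold lower (adjusted p = 0.00130).

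Of 143 tested small RNA genes, 83 were among the 480 called higher and 0 among those called lower. Of all genes, 9.41% were called higher and 11.1% lower. The 143 include small RNAs of kinds not listed below. The small RNA groups were formed after their values were seen and are a description. Of 88 tested transfer RNA genes 42 were higher (median log2 0.97), of 44 small nucleolar RNA genes 33 (median 1.39), and of 4 spliceosomal RNA genes 4 (median 1.41). Per array, the transfer RNA median was 0.60, 0.99 and 1.30 above the spermidine mean on the spermine arrays and between -0.81 and 0.50 on the spermidine arrays. Against control the medians of transfer, nucleolar and spliceosomal RNA were log2 -1.27, -1.51 and -1.35 with spermidine, and -0.28, -0.15 and 0.14 with spermine. Probe sets of short RNAs read what the labelling of total RNA recovers of them, and its part in the difference was not tested. With small RNA genes left out of normalization and fit, 435 genes were called higher and 523 lower.

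**Figure D4:**
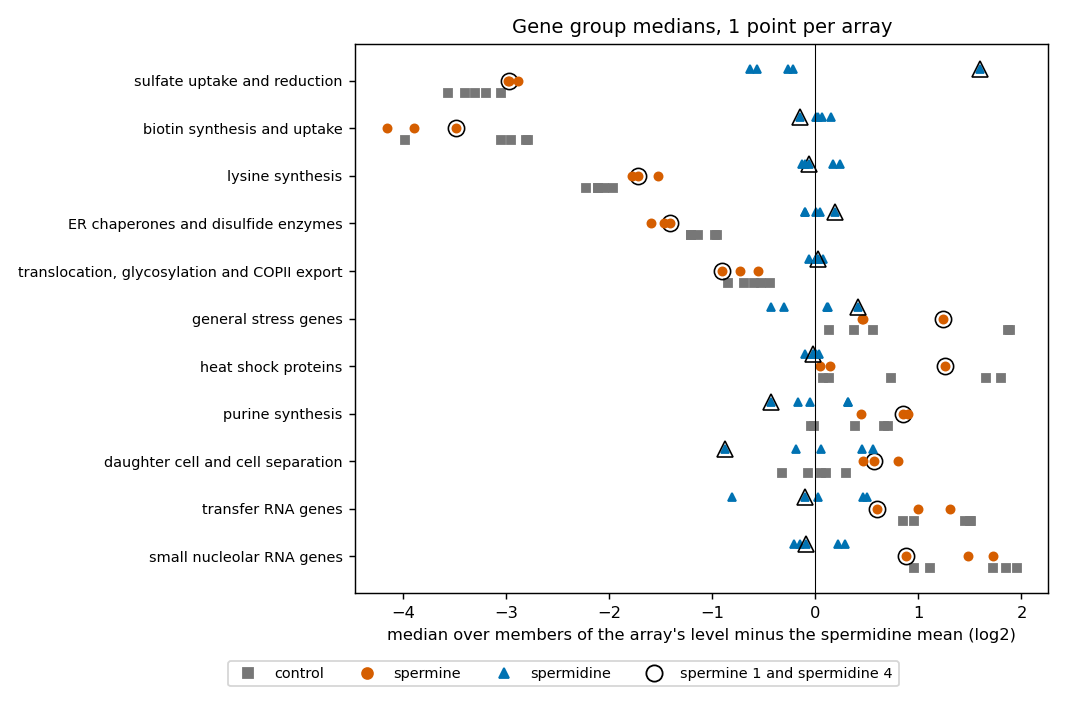
Median over the members of 11 gene groups of each array's level minus the spermidine mean (log2), 1 point per array, with spermine 1 and spermidine 4 ringed. Sulfate, biotin, lysine and ER groups keep the spermine arrays below the spermidine arrays, while general stress and heat shock genes are highest among treated arrays on spermine 1, at 1.24 for general stress genes.

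Genes of protein synthesis were called in small numbers, all but 1 of them higher with spermine. Cytosolic ribosomal proteins were called for 5 of 81 and mitochondrial ones for 1 of 66, each higher, and ribosome assembly for 7 of 89 (median log2 0.34, with 82 above 0), shares under the 9.41% of all genes. NOG2, a ribosome assembly GTPase, was 1.62-fold higher (adjusted p = 0.00467) by its brightest probe set, while a further one gave log2 0.11 (adjusted p = 0.615). RPA135, the second subunit of RNA polymerase I, had 3742, 4105 and 2615 with spermine and 1684, 1689, 2624, 1110.3 and 1623 with spermidine (2.11-fold higher, adjusted p = 0.00514). Aminoacyl-tRNA synthetases had 4 higher of 19 (21.1%) and translation factors 4 of 32 (12.5%), shares above it. Without spermine 1, both groups had 2, and ribosome assembly had 2. With 1 array left out at a time, the lowest count was 0 in both groups and 1 in ribosome assembly. RPA135 was the 1 of 21 RNA polymerase I and III genes called higher, and RPC19 the 1 called lower, which lost its call without spermine 1, 2 or 3 or spermidine 1, 2 or 5 (adjusted p up to 0.123).

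Cell cycle genes differed in a few cases. CLN1, a cyclin of the G1 phase, had 69.1, 54.5 and 55.2 with spermine and 239, 216, 199, 455 and 241 with spermidine (4.48-fold lower, log2 -2.16 ± 0.20, adjusted p = 4.73e-06), and PCL1, a cyclin of the kinase Pho85, 69.3, 95.6 and 69.2 against 248, 201, 193, 626 and 254 (log2 -1.86 ± 0.29, adjusted p = 0.000430). Both were highest on spermidine 4, and the other spermidine arrays were also above the spermine arrays. Of 15 cyclin genes with SIC1, 4 were lower and 1 higher. Daughter cell genes had 0 of 12 called by limma (median log2 0.61), and DSE2 and CTS1 had intervals of -0.30 to 1.78 and -0.22 to 1.43. On spermidine 4 they were at 700 and 1826, below all other treated arrays. HUG1, induced by DNA damage, was 2.47-fold lower (log2 -1.30 ± 0.24, adjusted p = 0.00137), with 2 of 7 ribonucleotide reductase genes lower. In oxidative stress defence 1 of 22 was higher and 2 lower, among them TSA1, a peroxiredoxin, 1.36-fold lower (adjusted p = 0.00167), and HYR1, a peroxidase, 1.54-fold lower (adjusted p = 0.00326).

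Cell wall genes had 2 higher and 4 lower of 33, and 1 higher and 1 lower without spermine 1. TIR4, a wall mannoprotein, was 1.94-fold higher (adjusted p = 0.00920). Trehalose and glycogen genes had 1 higher of 20, glycolysis 2 higher of 18, gluconeogenesis 2 higher of 9, pyrimidine synthesis 2 higher of 11, histones 1 lower of 4, and arginine and proline breakdown 1 higher of 4. PYC2, pyruvate carboxylase, was 1.84-fold higher (adjusted p = 0.00130). Of mating type genes, MF(ALPHA)2 and SAG1 were called lower of 5 alpha-specific genes, with the spermidine signal of MF(ALPHA)2 running from 91.3 on spermidine 4 to 1344. The MF(ALPHA)2 call ended on leaving out any of the 5 controls, 3 spermine arrays or spermidine 1, 2, 3 or 5, and without spermidine 4 its adjusted p was 8.38e-05. SAG1 lost its call without spermine 2 or 3 or spermidine 1, 2, 3 or 5 (adjusted p up to 0.198). Of 7 haploid-specific genes STE18, a G protein subunit, was 1.97-fold higher (adjusted p = 0.000789). MFA2, the 1 tested a-specific gene, had an interval of -1.03 to 1.65. Of 3 tested meiosis genes SPS1, a kinase, was 2.24-fold lower (adjusted p = 0.00493), and NDT80, a transcription factor, was 1.80-fold lower and lost its call without spermine 1 or 3 or spermidine 1, 2, 3 or 4 (adjusted p up to 0.169).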

How the data were processed

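Total RNA of 13 samples was measured on one-colour Affymetrix yeast arrays. The deposited values are linear signal intensities that the authors made with MAS5, per the labels, in a version not given in the sources used here. Each array had been scaled to a 2% trimmed mean of about 500.4. Sample titles gave the groups and replicate numbers.

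Of 9335 probe sets, 6504 named 1 gene. The log2 of the signals, with no pseudocount, was quantile normalized, since array medians differed by 1.29-fold against a limit of 1.25. Probe sets under a mean signal of 37.8 (the dimmest 25%) were left out, and each gene was read from its brightest probe set. Several probe sets were tested for 250 genes, and for 0 of them did they move in opposite directions at an unadjusted p under 0.01. The limma fit (version 3.58.1, in R 4.3.3) gave 1 mean per group over 13 arrays, used a trend of variance with intensity, and had its p-values adjusted by Benjamini-Hochberg. A fold is 2 to the power of the fitted log2. A fold of at least N compares a group mean with the background level. The number of arrays limits the precision. The scripts were tested on simulated data.

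Members and 59 gene lists were chosen with earlier results of these data known, and no list was tested as a set. Named genes are the 12 largest differences each way without overlap between groups and above the median level, up to 4 called members per list, up to 2 called against their list, the 2 brightest of a list with none called, and every polyamine gene. These are 198 genes, of which the text gives a part. Alternatives covered normalization, pseudocounts of 16 and 64, filters, trend, weights, arrays used, blocks and each array left out. Promoter and protein sequences were not used here. The figures come from matplotlib 3.10.9 (Python 3.11.15).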

Additional observations from a re-analysis of the deposited data

Results flagged for a closer look

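Among 396 sets of 5 arrays of 1 group for a named gene, 27 had 1 array whose gap to the nearest other array took more of the group's range than the 95% critical value of Dixon's test allows, where chance gives about 5%. Of these, 17 were spermidine 4, 2 were spermidine 3 and 8 were controls. The share of the range is given for each gene.

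Spermidine 4 was high for the sulfur genes MET2 (0.829, a signal of 3480 against 562 to 766), MET10 (0.834), MET28 (0.759), MHT1 (0.847) and SAM3 (0.913), and for BNA3 (0.823), ARG4 (0.858), SER33 (0.892) and ERG5 (0.767). The G1 cyclin CLN1 (0.734) and PCL1 (0.757, 626 against 193 to 254) were high there too. It was low for the cell separation genes CTS1 (0.879) and DSE2 (0.920, 699.6 against 3906 to 4481), and for NCA3 (0.806), BIO5 (0.845), PHO3 (0.742) and TIR4 (0.855). Spermidine 3 was low for INO1 (0.764) and GAS5 (0.735).

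Control 4 was low for BIO3 (0.882), ANB1 (0.815), HXT6 (0.787), ATG7 (0.729) and FIT2 (0.733). Control 3 was high for TPO5 (0.754) and low for GIT1 (0.857), and control 2 was low for DER1 (0.718).

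Of 554 genes left out of the test as too dim, 7 were above background on all arrays of a treated group and on 0 control arrays. With spermidine these were MET32, a regulator of sulfur genes (mean signal 132, and 47.2 to 406 by array against 8.15 to 13.6 in controls and 7.91 to 27.3 with spermine), EMP46 (54.8), GIP1 (40.1), PHM6 (63.7), SPO11 (58.3) and VEL1 (79.3). EMP46 was also above background on the 3 spermine arrays, at 18.5 to 39.1. With spermine it was YAL064W (20.8).

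Probe sets outside the gene table gave similar shares of calls. Of 281 that name several genes, 24 were higher and 41 lower with spermine (23.1%), and of 1012 without a gene name, 118 and 117 (23.2%).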

How the results depend on the processing

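Among genes called in the main analysis and again in any of 28 other settings, none changed direction. The settings reuse all or most of the same arrays, so a gene called in both could hardly do so. None of the 177 named genes called changed direction in any setting that tested it. The 2-fold counts moved most with a pseudocount of 64, at 152 lower against 235. Leaving out 1 array at a time gave 300 to 486 genes higher and 418 to 587 lower, and by at least 2-fold 169 to 209 and 207 to 237. The lowest counts of higher genes came without spermine 2 or 3 (300 each), where 2 spermine arrays remain. Array weights gave 652 and 713. With spermine 1 and controls 2 and 3 as a block, chosen after seeing the data, counts were 646 and 673, and with these arrays left out 467 and 551. Leaving out small RNA genes, or spermine 1 and spermidine 4, and dropping the filter together with an array for SUL1 and YNL194C were also added after seeing the data. Of 177 named genes called, 150 were tested in all 28 settings and 79 of these kept their call in each, and of the 27 left out as dim in some setting 16 kept it wherever they were tested. Of 21 not called 2 were called in some setting.

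The groups share replicate numbers 1 to 3, but same-numbered spermine and spermidine samples deviated together at correlations of -0.286, 0.0228 and -0.324, so the number is taken as a name. With the replicate number as a block, 264 genes were higher and 358 lower, and 609 of the 1047 calls remained. Genes near background have poorly measured low levels, so their folds are less certain than those of bright genes.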
